A study of Mus musculus with 2 samples.

Results

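Expression of 10 glycolysis genes was followed across the cell classes of the spinal cord of mice with spinal muscular atrophy (SMA) and of control mice (Con), with 1 single-cell library of each. The genes were chosen by symbol: Hk1, Hk2, Pfkp, Aldoa, Aldoc, Tpi1, Pgk1, Eno1, Ldha and Ldhb. All 10 symbols were found among the 32285 genes of the files. Aldoa stood for 2 identifiers, of which ENSMUSG00000030695 was used, since the other held only 6 UMIs (SMA) and 5 UMIs (Con). SMA mice were mSmn-/-, hSMN22tg/0 and Con mice were mSmn+/-, hSMN22tg/0 littermates, all FVB mice at postnatal day 4. Both groups thus carry the human SMN2 transgene, and the controls have a single intact Smn allele. Spinal cords of littermates were pooled before dissociation, so each group is 1 library without a replicate, and no difference between the groups could be tested. Values are given for the SMA library first and the Con library second, and all intervals are 95% intervals for counting error only.

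Glycolysis splits glucose into pyruvate in the cytosol. Hexokinases (Hk1, Hk2) trap glucose, phosphofructokinase (Pfkp is the platelet type) commits it to the pathway, aldolases (Aldoa, Aldoc) cleave the sugar, Tpi1 interconverts the triose phosphates, and Pgk1 and Eno1 act in the later steps. Lactate dehydrogenase, built of A and B subunits (Ldha, Ldhb), converts pyruvate and lactate into each other. Many steps have isozymes that differ between cell types, and Aldoc is well known in the nervous system as an astrocyte gene.

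The libraries held 26921 and 25419 barcodes with 85872075 and 97894084 UMIs (unique molecular identifiers, each standing for 1 captured RNA molecule). They had 8163 barcodes in common, which were left out of the SMA library alone. Of the 13296 SMA cells that passed the filters 6509 were removed in this way, while the 6557 Con cells with such barcodes stayed, which left 6787 and 8917 cells. The cells were grouped into classes by marker genes, with the 10 glycolysis genes kept out of the grouping, and 11 classes had at least 50 cells in each library. Levels are given as CPM, the UMIs of a gene per 1000000 UMIs of the class. As each molecule is counted once whatever its length, gene length does not enter the levels. Other differences between genes, such as the division of reads between near-identical copies, can still do so. Smn1 did not separate the libraries (52.1 and 51.4 CPM), so it did not check the labels. Xist was at 1.66 and 625 CPM and the Y-linked genes together at 167 and 74.6 CPM. The sexes of the pooled animals therefore differed, and sex and genotype cannot be told apart.

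Over the named cells other than erythroid-like ones (6148 and 7572 cells), the 10 genes together made up 3133 and 3277 CPM, a log2 ratio of SMA over Con of -0.06 (-0.08 to -0.05). The median of all 14389 genes with at least 100 UMIs was 0.03. This small summed difference held opposite movements. Aldoc, at 966 and 752 CPM, was higher in SMA, and so to a lesser degree was Ldhb, at 558 and 524 CPM. The Aldoc ratio of 0.36 was 0.18 with the shared barcodes kept in. The Ldhb ratio of 0.09 was 0.0076 with the shared barcodes and 0.035 with a mitochondrial limit of 20%, so its direction is weakly held. Tpi1 (194 and 288 CPM), Ldha (366 and 506 CPM), Aldoa (341 and 427 CPM), Pfkp (12.2 and 16.0 CPM) and Pgk1 (267 and 310 CPM) were lower. A log2 ratio of 0.5 was passed upwards by 0 of the 10 genes (7.71% of all genes) and downwards by 1, Tpi1 (6.43% of all genes). Tpi1 stood at -0.57 (-0.61 to -0.53), but at -0.48 with the shared barcodes. These pooled values also move with the mix of classes, which differed between the libraries.

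**Figure D1:**
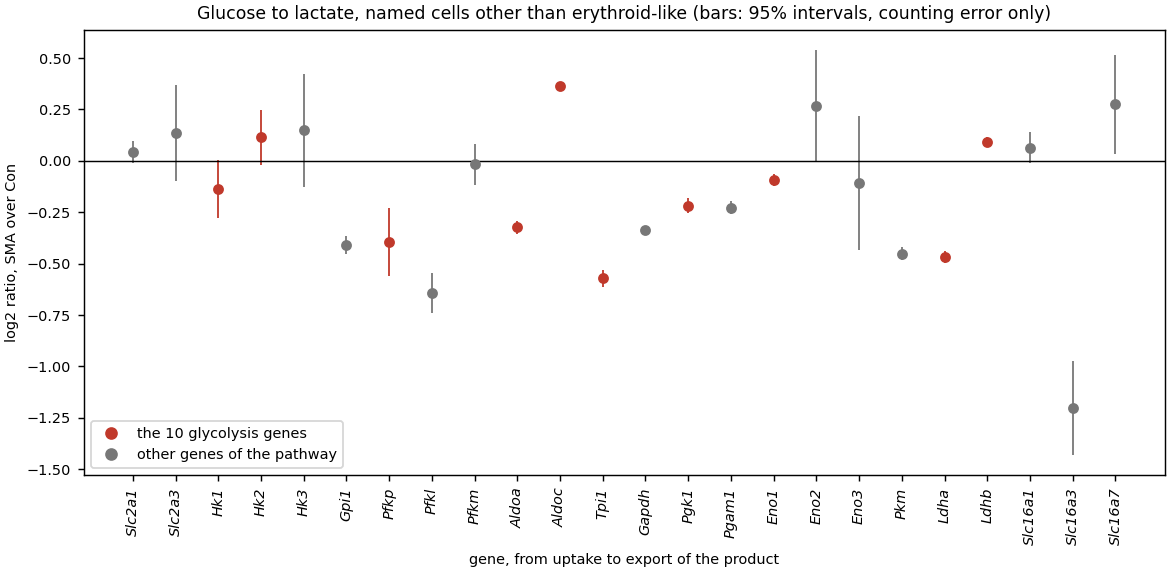
Log2 ratio of CPM, SMA over Con, in named cells other than erythroid-like, for the 10 genes and other genes of the pathway; bars are 95% intervals for counting error. Aldoc at 0.36 and Ldhb at 0.09 stand above 0, while their isozyme partners Aldoa at -0.32 and Ldha at -0.47 stand below it.

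The genes were found at very different levels in the cell classes. Astrocyte-like cells had the highest summed level, 6978 and 6425 CPM. Microglia-like cells had the lowest of the 10 classes other than erythroid-like, 1604 and 1636 CPM. By the mean of both libraries oligodendrocyte-like cells came second with 2857 and 3056 CPM, although fibroblast-like cells were higher in Con, at 3247 CPM, and from there on 6 successive neighbours in the order had ranges that overlapped.

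The hexokinases divided the classes clearly. Hk2 was at 81.8 and 78.9 CPM in microglia-like cells, where it supplied 94.1% (92.1 to 95.8) and 94.3% (92.0 to 96.1) of the Hk1 and Hk2 UMIs. Hk1 was at 5.09 and 4.76 CPM in the same cells. OPC-like cells (oligodendrocyte precursors) had the opposite order, with Hk1 at 27.6 and 32.8 CPM and an Hk2 share of 9.35% (6.52 to 12.9) and 11.3% (lower bound 8.33). In endothelial-like cells Hk1 was at 31.9 and 20.9 CPM and Hk2 held only 2 and 10 UMIs. Ependymal-like cells, which line the central canal, lay between, with an Hk2 share of 61.0% (50.7 to 70.6) and 62.5% (49.5 to 74.3). This share described neither of their clusters, since 1 cluster (224 and 124 cells) held 59 and 37 UMIs of Hk2 against 19 and 12 of Hk1, and the other (409 and 171 cells) held 2 and 3 UMIs of Hk2 against 20 and 12 of Hk1.

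By the mean of both libraries Pfkp led in endothelial-like cells, with 33.5 and 41.8 CPM, against 16.1 and 20.1 CPM in OPC-like cells. Its range there overlapped that of the next class, oligodendrocyte-like cells. Its share of the UMIs of Pfkp, Pfkl and Pfkm was 30.7% (25.2 to 36.6) and 29.2% (25.4 to 33.3) in endothelial-like cells. In astrocyte-like cells it was 3.60% and 3.51%, with the rest from the liver and muscle types. Schwann-like cells held 1 and 2 UMIs of Pfkp.

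Aldoa and the genes of the later steps were more evenly spread. Of the classes other than erythroid-like (34.5 and 52.7 CPM), Aldoa was lowest in OPC-like cells, at 205 and 223 CPM. It was at 521 and 643 CPM in ependymal-like and at 520 and 682 CPM in mural-like cells (pericytes and smooth muscle). Pgk1 had its highest level in oligodendrocyte-like cells, 652 and 653 CPM, above the 349 and 388 CPM of ependymal-like cells. Eno1 was highest in astrocyte-like cells, 608 and 639 CPM, followed by OPC-like cells with 426 and 467 CPM. It supplied 99.4% and 99.7% of the Eno1 and Eno2 UMIs of astrocyte-like cells and 98.7% and 99.1% of those of OPC-like cells. Eno1b, a near-identical copy, held 449 and 683 UMIs in the pooled cells, and the division of reads between Eno1 and Eno1b is uncertain.

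The lactate dehydrogenase subunits marked different classes. By the mean of both libraries Ldhb was highest in astrocyte-like cells, at 1349 and 1286 CPM, and next in Schwann-like cells, the glia of the nerve roots, at 1025 and 1080 CPM. Of the classes other than erythroid-like (85.8 and 102 CPM) it was lowest by this mean in endothelial-like cells, at 139 and 129 CPM, although fibroblast-like cells were lower in Con, at 120 CPM. In endothelial-like cells Ldha was at 612 and 614 CPM. Their Ldhb, at 1.04 and 1.04 UMIs per cell, was near the 0.823 and 0.978 of erythroid-like cells. Ldha supplied 81.5% (79.7 to 83.3) and 82.6% (81.1 to 84.0) of the lactate dehydrogenase UMIs of endothelial-like cells, but 25.3% (22.8 to 27.8) and 23.8% (22.2 to 25.4) in Schwann-like cells. Its share was also low in astrocyte-like cells, at 22.7% and 28.8%. It was 66.0% and 75.5% in oligodendrocyte-like cells, above the 51.5% and 63.7% of mural-like cells. The mix of oligodendrocyte-like clusters differed between the libraries, with 17.8% and 7.27% of the cells in the cluster led by Mog. Their median depth also differed, at 7780 and 3963 UMIs per cell. The part of mix and depth in this share was not tested.

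**Figure D2:**
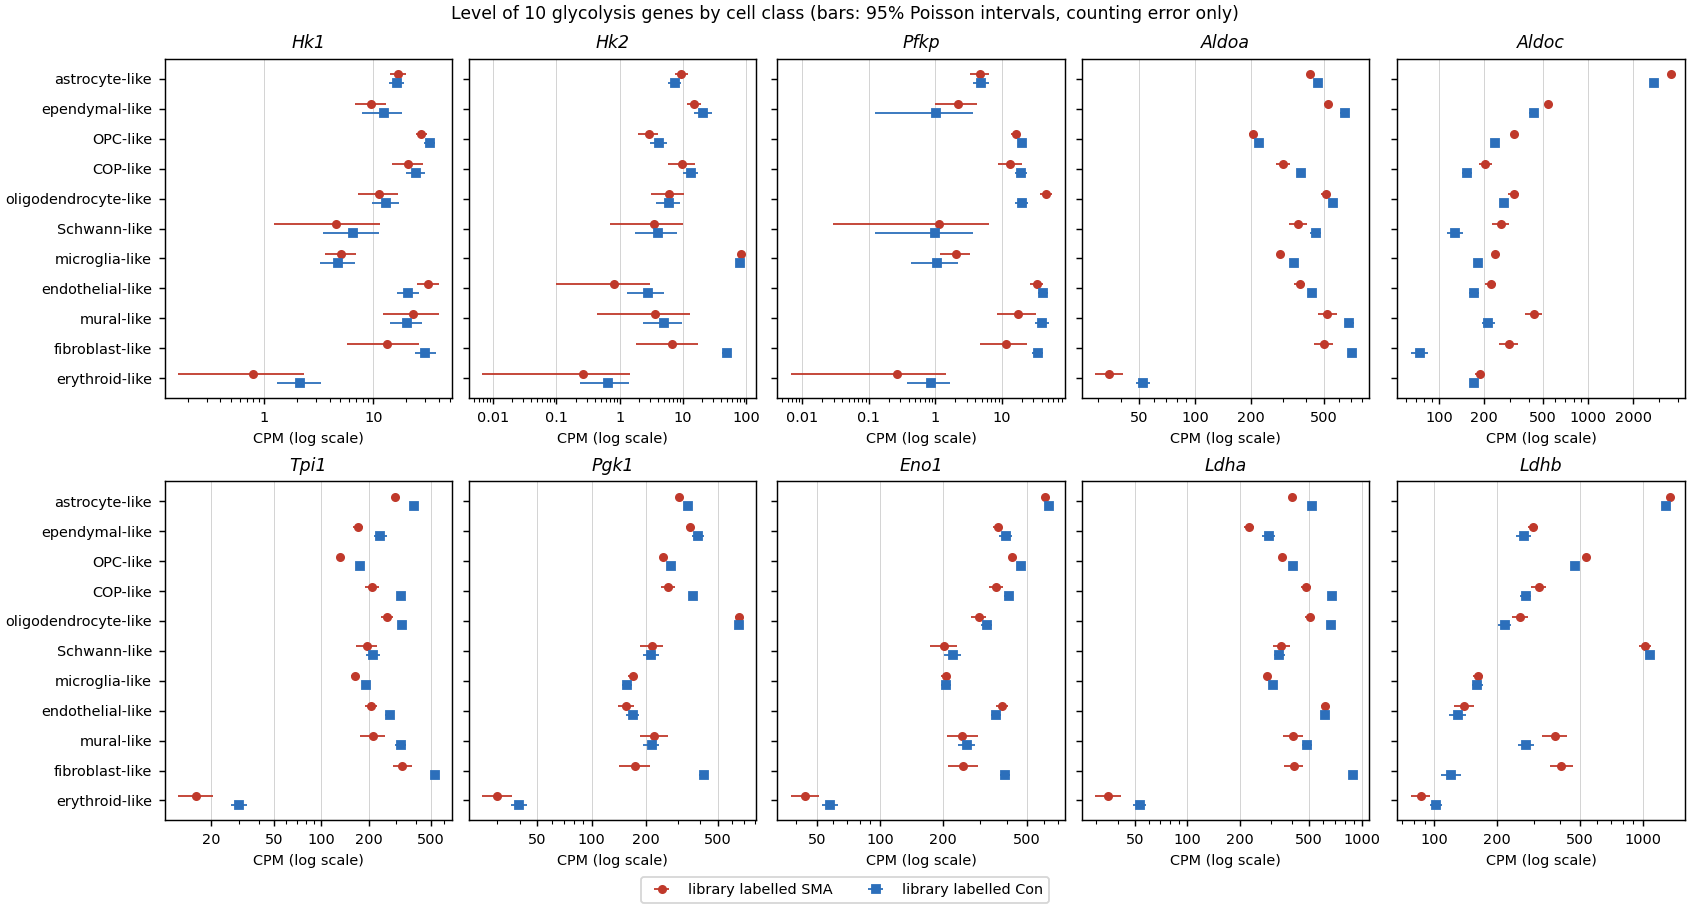
Level in CPM (log axis) of each of the 10 genes in the cell classes, by library, with 95% Poisson intervals. Hk2 peaks in microglia-like cells (81.8 and 78.9 CPM), Aldoc, Eno1 and Ldhb in astrocyte-like cells and Pgk1 in oligodendrocyte-like cells.

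The promoters of the isozyme pairs are printed because the partners differed in opposite directions between the libraries. Many glycolysis genes are known targets of the hypoxia-inducible factor, whose element was searched for as ACGTG or GCGTG on both strands. Capitals mark each match, and CACGTG matches on both strands with overlap. Of the 17 RefSeq promoters (GRCm38.p6, 300 bases each) listed for the 10 genes, 14 held a match (82.4%), against 43.8% of all 32851 promoters of that length. Some of the 17 overlap, so a pair of Aldoa promoters counts 1 match and a pair of Eno1 promoters 2 matches more than once. By gene, 9 of the 10 had a match in a promoter, against 46.7% of 27025 genes. Both searched strings hold the letters CG, and the comparison was not matched for base content, so it does not show an excess of the element itself. The sequences lie at chr7:126799129-126799428 on the minus strand (Aldoa), chr11:78322823-78323122 on the plus strand (Aldoc), chr7:46845554-46845853 on the plus strand (Ldha) and chr6:142507908-142508207 on the minus strand (Ldhb).
Aldoa: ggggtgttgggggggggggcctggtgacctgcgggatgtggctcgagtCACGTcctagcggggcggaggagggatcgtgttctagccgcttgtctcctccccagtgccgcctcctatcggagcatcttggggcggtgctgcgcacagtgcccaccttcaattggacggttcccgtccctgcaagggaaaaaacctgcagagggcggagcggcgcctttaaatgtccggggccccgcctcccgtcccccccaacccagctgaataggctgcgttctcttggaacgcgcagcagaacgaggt
Aldoc: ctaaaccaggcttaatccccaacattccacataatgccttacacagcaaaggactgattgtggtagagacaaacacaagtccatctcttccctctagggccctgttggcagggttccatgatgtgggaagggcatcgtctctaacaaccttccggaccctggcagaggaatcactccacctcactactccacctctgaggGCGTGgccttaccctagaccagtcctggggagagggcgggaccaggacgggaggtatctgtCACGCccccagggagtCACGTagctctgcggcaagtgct
Ldha: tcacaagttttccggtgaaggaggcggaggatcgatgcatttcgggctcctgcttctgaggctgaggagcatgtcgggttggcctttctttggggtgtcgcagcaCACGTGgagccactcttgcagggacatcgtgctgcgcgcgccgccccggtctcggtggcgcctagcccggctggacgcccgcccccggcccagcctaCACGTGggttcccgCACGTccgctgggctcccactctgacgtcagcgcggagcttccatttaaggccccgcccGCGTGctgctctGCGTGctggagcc
Ldhb: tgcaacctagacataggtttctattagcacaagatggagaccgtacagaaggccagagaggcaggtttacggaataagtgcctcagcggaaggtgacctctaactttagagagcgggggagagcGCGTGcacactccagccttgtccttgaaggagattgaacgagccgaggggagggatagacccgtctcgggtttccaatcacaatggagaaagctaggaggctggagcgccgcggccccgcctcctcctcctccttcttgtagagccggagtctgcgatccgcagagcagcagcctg

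The promoter shown held 7 matches for Ldha, 1 for Ldhb, 3 for Aldoc and 1 for Aldoa. Further promoters listed for these genes held 2 matches (Ldha), 1 (Aldoc) and 0 and 1 (Aldoa). The promoter of Tpi1 held 0. A match is a run of letters and was not tested as a binding site.

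Aldoa and Tpi1 were lower in SMA in all 10 classes other than erythroid-like. Aldoa was at 416 and 463 CPM in astrocyte-like cells, at 290 and 342 CPM in microglia-like cells and at 300 and 375 CPM in COP-like cells (committed oligodendrocyte precursors). Its log2 ratios lay between -0.52 and -0.12, with all 10 intervals below 0. Tpi1 was at 293 and 389 CPM in astrocyte-like cells, at 207 and 273 CPM in endothelial-like cells and at 211 and 319 CPM in COP-like cells. Its log2 ratios lay between -0.69 and -0.13, with the interval below 0 in 9 classes and not in Schwann-like cells. With the shared barcodes Aldoa in oligodendrocyte-like cells turned from -0.13 to 0.03. The lowest ratio of each gene was in fibroblast-like cells. It turned to 0.62 (Aldoa) and 0.16 (Tpi1) without a cluster of 432 Con cells described below.

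The clusters within these classes were less uniform. Counted were clusters with at least 20 cells in each library, in classes of more than 1 cluster, where the gene had at least 100 UMIs. Aldoa was below 0 in 18 of 21 such clusters, with 9 intervals below and 2 above 0, and Tpi1 in 16 of 21, with 13 below and 1 above. Both stood above 0 in a microglia-like cluster whose first gene was Mki67 (104 and 39 cells), where Aldoa was at 241 and 150 CPM (0.68, 0.24 to 1.15) and Tpi1 at 177 and 113 CPM (0.65, 0.14 to 1.19). The other interval of Aldoa above 0 was in fibroblast-like cells. Ldha was below 0 in 17 of 22 clusters, with 11 intervals below and 1 above 0. Aldoc was above 0 in 19 of 22, with 15 intervals above and 0 below, and Ldhb in 17 of 22, with 8 above and 1 below.

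Ldha was lower in 9 of 10 classes, with the interval below 0 in 8. It was at 396 and 521 CPM in astrocyte-like cells, a log2 ratio of -0.40 (-0.46 to -0.33), and at 480 and 678 CPM in COP-like cells, a log2 ratio of -0.50 (-0.61 to -0.39). Endothelial-like cells, at -0.01 (-0.10 to 0.09), and Schwann-like cells, at 0.04 (-0.16 to 0.24), had intervals that held 0. Eno1 was lower in 9 classes and Pgk1 in 7, each with 5 intervals below 0. Pgk1 lies on the X chromosome (106187100 to 106203699, plus strand, GRCm38), and the sexes differed between the libraries. Its ratio was -0.16 (-0.23 to -0.09) in astrocyte-like cells and 0.10 (-0.02 to 0.22) in microglia-like cells.

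Other lists also differed within classes. In COP-like cells the immediate early and heat shock genes, a sign of handling, were above 0 in 7 of 8 tested, with a median of 0.90, and in OPC-like cells in 7 of 9, with a median of 0.46. In Schwann-like cells the cell-cycle genes were above 0 in 11 of 11, with a median of 1.33, and in microglia-like cells in 20 of 20, with a median of 0.74. In endothelial-like cells the cell-cycle genes were below 0 in 11 of 11, with a median of -0.76, and the handling genes above 0 in 9 of 10, with a median of 0.47. In ependymal-like cells the cell-cycle genes were below 0 in 16 of 17, with a median of -0.35. Of all genes of a class, 54.7% were above 0 in COP-like, 48.0% in OPC-like and 54.3% in Schwann-like cells. The share was 57.2% in microglia-like, 50.6% in endothelial-like and 42.9% in ependymal-like cells. The part of handling and cell cycle in the glycolysis values was not tested.

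**Figure D3:**
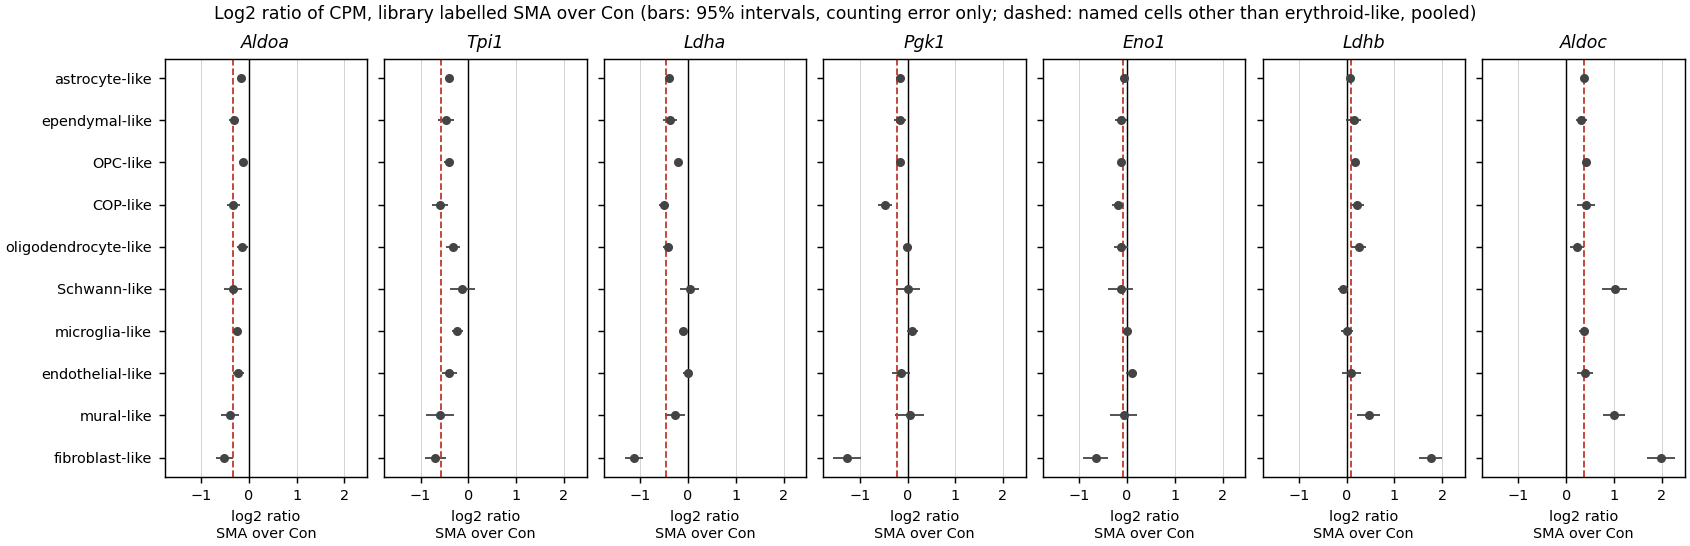
Log2 ratio of CPM, SMA over Con, of the glycolysis genes in 10 classes, with 95% intervals for counting error. Aldoa and Tpi1 lie below 0 and Aldoc above 0 in all 10 classes.

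Aldoc was higher in SMA in all 10 classes, with every interval above 0. In astrocyte-like cells it was at 3581 and 2758 CPM, a log2 ratio of 0.38 (0.35 to 0.40), and it was higher in each of the 4 astrocyte-like clusters, by 0.32 to 0.64. The 8 astrocyte markers used for naming summed to 6750 and 7177 CPM in these cells. Ldhb was higher in 9 of 10 classes, with 6 intervals above 0. Its ratio was 0.07 (0.03 to 0.11) in astrocyte-like cells and 0.17 (0.12 to 0.23) in OPC-like cells, at 534 and 473 CPM. The astrocyte-like ratio was 0.026 with a mitochondrial limit of 20% and 0.136 when centred on the median gene.

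Droplets can take up free RNA of the suspension, so the Aldoc of each class was set beside that of erythroid-like cells, which should not make it and held 1.80 and 1.66 UMIs of it per cell. Microglia-like cells held 1.75 and 1.36, endothelial-like cells 1.67 and 1.38, and COP-like cells 1.54 and 1.20, all below that level. OPC-like cells held 1.83 and 1.40, at that level in SMA and below it in Con. The mean Aldoc of these 4 classes is therefore not read as expression. Fibroblast-like cells held 2.75 and 0.346 UMIs per cell, and a cluster of 432 Con cells among them held 9 UMIs in all. The erythroid-like level is thus not a floor that all droplets of a library share. One microglia-like cluster stood above the level, with 617 UMIs in 137 SMA cells and 456 in 101 Con cells. Aldoc per UMI of the astrocyte markers was 0.530 and 0.384 in astrocyte-like cells, against 1.14 and 0.627 in erythroid-like, 1.11 and 0.926 in COP-like and 0.738 and 0.517 in microglia-like cells, so the classes did not hold both in 1 ratio. The part of free RNA in the Aldoc difference was not tested. Oligodendrocyte-like cells (2.54 and 1.66), Schwann-like cells (2.52 and 1.12) and mural-like cells (2.62 and 1.46) were above the erythroid-like level in SMA but not in Con, so the size of their difference rests on Con values at or below that level. In oligodendrocyte-like cells Aldoc was at 1076 and 853 CPM in 1 cluster (115 and 331 cells) and at 144 and 151 CPM in another (93 and 256 cells), and the ratio of the class turned from 0.22 to -0.25 with the shared barcodes. Astrocyte-like cells, with 23.4 and 18.6 UMIs per cell, and ependymal-like cells, with 3.46 and 2.83, stood above the erythroid-like level in both libraries, and in ependymal-like cells the log2 ratio was 0.31 (0.20 to 0.43). In the latter it was 0.44 (0.29 to 0.60) in the larger cluster and 0.07 (-0.12 to 0.25) in the smaller.

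Of the other genes, Aldoa and Ldhb are given on the same scale. Aldoa was at 0.331 and 0.505 UMIs per erythroid-like cell but at 1.18 and 1.31 in OPC-like cells, the lowest of the other classes. Ldhb, at 0.823 and 0.978 per erythroid-like cell, was near this level in microglia-like (1.18 and 1.19) and endothelial-like cells (1.04 and 1.04) and far above it in Schwann-like cells (9.91 and 9.40). The cluster of 432 Con fibroblast-like cells held 21 UMIs of Ldhb in all. The part of free Ldhb RNA in the Ldha shares of microglia-like and endothelial-like cells was not tested.

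**Figure D4:**
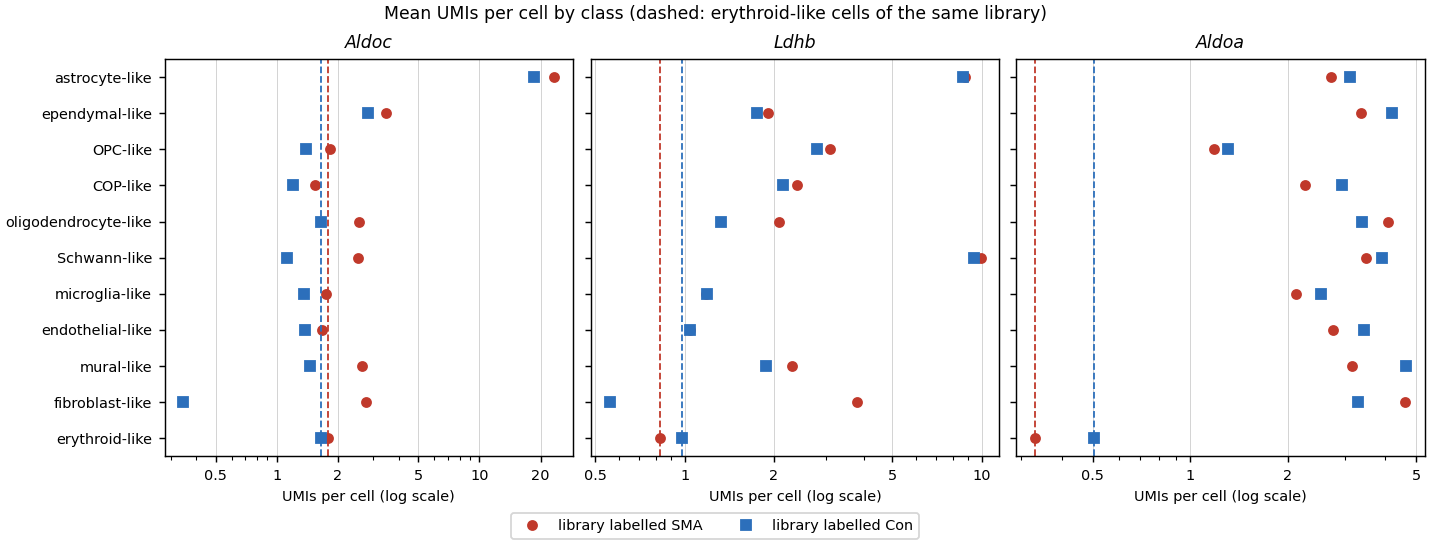
Mean UMIs per cell (log axis) by class and library, with the erythroid-like value for comparison. Aldoc of microglia-like, endothelial-like and COP-like cells lies below that level, while astrocyte-like cells reach 23.4 (SMA) and 18.6 (Con).

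The isozyme balance differed accordingly. Aldoc supplied 89.6% (89.3 to 89.9) and 85.6% (85.2 to 86.0) of the aldolase UMIs of astrocyte-like cells. The Ldha share was 22.7% (22.0 to 23.4) and 28.8% (28.2 to 29.5) in astrocyte-like cells, 39.6% (38.7 to 40.6) and 46.2% (45.1 to 47.2) in OPC-like cells, and 60.2% (57.7 to 62.7) and 71.2% (69.8 to 72.6) in COP-like cells. These intervals do not overlap. In microglia-like cells, at 64.0% (62.4 to 65.6) and 65.8% (64.0 to 67.4), and in the endothelial-like and Schwann-like cells above they do.

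**Figure D5:**
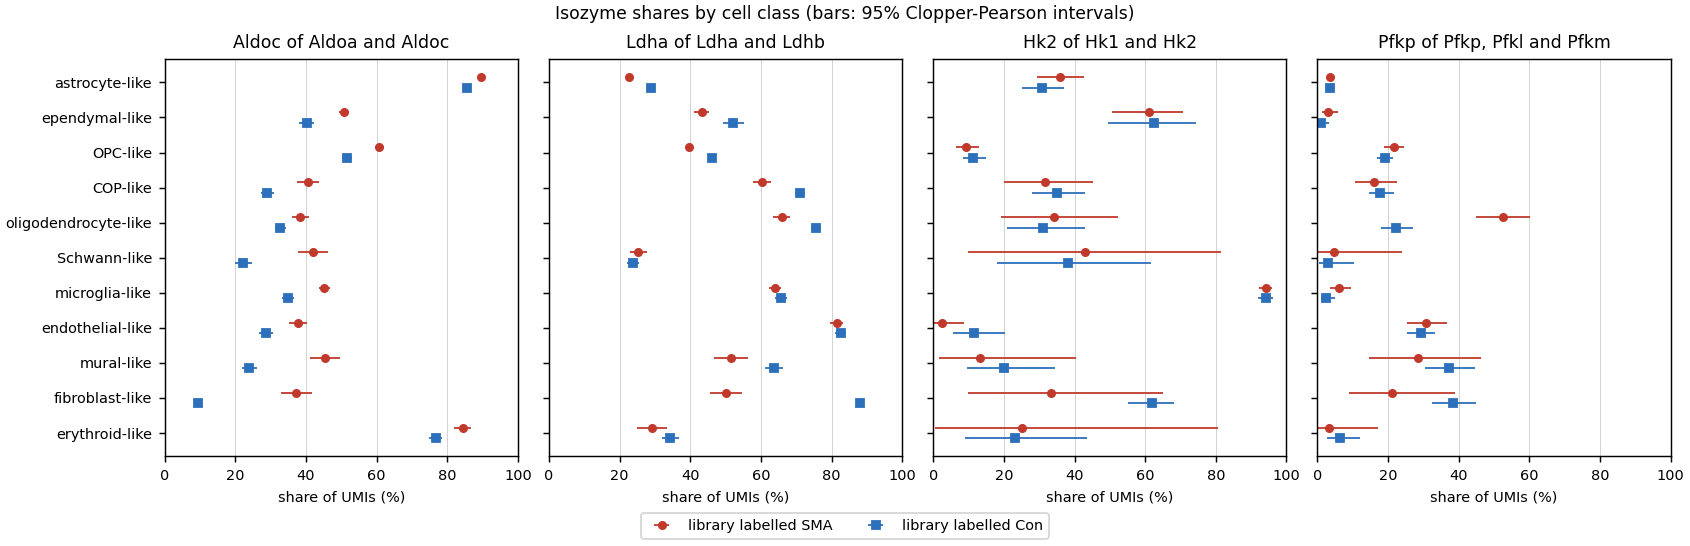
Share of UMIs (%) taken by an isozyme by class and library, with 95% Clopper-Pearson intervals. The Ldha share is 22.7% and 28.8% in astrocyte-like cells and 81.5% and 82.6% in endothelial-like cells; in Con, Schwann-like cells lie lower (23.8%) and fibroblast-like cells higher (88.1%).

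Of the 100 pairs of a gene and a class, 83 had at least 100 UMIs over both libraries. A log2 ratio of 0.5 was passed upwards by 6 pairs (5.58% of all such pairs over all genes) and downwards by 10 (6.12%). Of these 16 pairs, 9 were in fibroblast-like cells, where 17.1% of all genes passed upwards and 24% downwards. The other pairs upwards were Aldoc in Schwann-like cells (9.23% of genes there) and in mural-like cells (7.08%), both below the erythroid-like UMIs per cell in Con as given above, Hk1 in endothelial-like cells (6.62%) and Pfkp in oligodendrocyte-like cells (6.91%). The other pairs downwards were Tpi1 and Pfkp in COP-like cells (3.51%) and Tpi1 in mural-like cells (9.75%). Pfkp in COP-like cells rested on 25 and 84 UMIs, and its interval of -1.25 to 0.11 held 0. With the shared barcodes 4 of these 7 pairs were no longer past the fold, namely Tpi1 (-0.38) and Pfkp (-0.29) in COP-like cells, Tpi1 in mural-like cells (-0.41) and Hk1 in endothelial-like cells (0.42).

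Fibroblast-like cells did not compare like with like. Of the 601 Con cells, 432 (71.9%) fell in a cluster led by Timp1, Mfap5 and Pi16 that held 1 SMA cell. In these Con cells Ldha was at 1432 CPM, Aldoa at 1120 CPM and Tpi1 at 783 CPM, above the level of each class, while Aldoc was at 6.63 CPM and Ldhb at 15.5 CPM. Their median was 2804 UMIs per cell. The other fibroblast-like cluster (63 and 169 cells) had Aldoa at 492 and 321 CPM and Eno1 at 250 and 128 CPM, and its summed log2 ratio was 0.53 (0.44 to 0.63), against -0.44 in the whole class. The handling genes were below 0 in 11 of 11 in the whole class, where 49.4% of all genes were above 0. Without the cluster of 432 cells, a choice made after seeing the data, Aldoa and Tpi1 were lower in 9 of 10 classes, and 8 pairs passed upwards and 3 downwards in place of 6 and 10. Ldha and Eno1 were then lower in 8 of 10 classes and Pgk1 in 6.

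Pfkp in oligodendrocyte-like cells was at 45.9 CPM (93 UMIs) and 20.2 CPM (78 UMIs), a log2 ratio of 1.19 (0.74 to 1.64). In the cluster led by Ddc, Nfasc and Enpp6 (93 and 256 cells) it was at 58.8 and 21.0 CPM. In the cluster led by the myelin genes Mog, Ermn and Mobp (45 and 46 cells) it was at 34.8 and 33.5 CPM. The Pfkp share of phosphofructokinase UMIs was 52.5% (44.9 to 60.1) and 22.3% (18.1 to 27.1) in the class. Hk1 in endothelial-like cells, with 78 and 76 UMIs, had a log2 ratio of 0.61 (0.14 to 1.09).

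The other genes of the pathway leaned the way of Aldoa, Tpi1 and Ldha. Of 17, 10 had at least 100 UMIs in the pooled cells, and 8 of these were below 0, with a median log2 ratio of -0.28 against 0.03 for all genes. The lowest were Pfkl, the liver-type phosphofructokinase, at 32.7 and 51.1 CPM (-0.64, -0.74 to -0.55), and Pkm, the pyruvate kinase of most tissues, at 334 and 456 CPM (-0.45, -0.48 to -0.42). The highest were Eno2 at 0.27 (-0.01 to 0.54) and Hk3 at 0.15 (-0.13 to 0.42). All tested genes of this list were below 0 in COP-like, endothelial-like and ependymal-like cells (6 of 6 in each), against 2 of 4 in Schwann-like cells. The share of all genes above 0 was 54.7% in COP-like, 50.6% in endothelial-like, 42.9% in ependymal-like and 54.3% in Schwann-like cells. Within the 10 classes other than erythroid-like, 0 genes of the list were past the fold upwards, against 5.58% of all gene and class pairs. Downwards, all 5 tested in fibroblast-like cells were past it (24% of all genes there). Pfkl was past it in OPC-like cells, at 27.6 and 49.3 CPM (2.42% of genes there), in ependymal-like cells, at 44.1 and 79.3 CPM (4.52%), in microglia-like cells, at 24.3 and 34.4 CPM (2.39%), in oligodendrocyte-like cells, at 29.6 and 57.2 CPM (8.49%), and in mural-like cells, at 26.8 and 53.5 CPM (9.75%). Pkm was past it in COP-like cells, at 371 and 551 CPM (3.51%), in oligodendrocyte-like cells, at 257 and 405 CPM, and in mural-like cells, at 334 and 521 CPM. The others were Gpi1, the glucose-6-phosphate isomerase, in COP-like cells, at 118 and 172 CPM, and Eno1b in astrocyte-like cells, at 15.4 and 21.8 CPM (5.35%).

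Genes that bring fuel in and lead it out were mixed. Of 27, 25 were tested, 10 above and 15 below 0, with a median of -0.12. Pdk4, which restrains pyruvate dehydrogenase, stood at 0.54 (-0.02 to 1.10) with 62 and 51 UMIs, and Slc16a7, a monocarboxylate transporter, at 0.27 (0.03 to 0.52). Slc16a3, a lactate exporter, stood at -1.20 (220 and 605 UMIs), and at -0.51 without the cluster of 432 fibroblast-like cells. Pdk2 was at -0.46 (-0.63 to -0.30).

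Genes known to respond to low oxygen were spread around 0, with 7 above and 11 below of 18 tested and a median of -0.03. P4ha2 was at -2.01, Ndrg1 at -1.34 and Adm at -0.56, and without the cluster of 432 cells they were at -0.46, -0.86 and -0.08. The highest were Kdm3a at 0.22 and Higd1a at 0.11. The handling genes were above 0 in 7 of 11 pooled, with a median of 0.17, from Atf3 at 0.63 and Fosb at 0.41 to Hspa1a at -0.62 and Hspa1b at -0.76. The cell-cycle genes were above 0 in 16 of 20, with a median of 0.18, from Ube2c at 0.54 and Cenpf at 0.51 to Mcm6 at -0.14 and Mcm5 at -0.22. Of all genes in the pooled cells, 54.0% were above 0.

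Cycling cells were compared with the other cells of their class, since proliferating cells are known for high glycolysis. Cells with 2 or more UMIs of the 20 cell-cycle genes after thinning to 1000 UMIs were called cycling. These were 27.6% and 32.7% of OPC-like, 11.3% and 12.1% of astrocyte-like and 15.3% and 9.23% of microglia-like cells, against 3.29% and 5.37% of erythroid-like cells. The call is a range and not a cell type, with 207 and 287 astrocyte-like cells at 1 or 2 UMIs.

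Cycling astrocyte-like cells had less Aldoc than the others, 1902 against 3818 CPM in SMA and 1615 against 2941 CPM in Con, log2 ratios of -1.01 (-1.07 to -0.94) and -0.86 (-0.93 to -0.80). Aldoa was lower too, at -0.80 and -0.81, where 12.1% and 10.1% of all genes were past the fold downwards. Tpi1, Pgk1 and Eno1 had intervals that held 0 in both libraries. In cycling OPC-like cells Aldoa was at -0.58 and -0.41 and Pfkp at -0.63 and -0.62 (12.6% and 10.7% of genes past the fold downwards), while Pgk1 was at 0.18 (0.07 to 0.29) and 0.12 (0.01 to 0.23). In cycling microglia-like cells Pgk1 was at 0.26 and 0.32 and Aldoa at -0.21 and -0.64 (6.88% and 10.4%). Aldoa was thus lower in cycling cells of these 3 classes in both libraries, while no interval of Pgk1 lay below 0.

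The genes most like each member were found by Pearson's r of log2(CPM + 10) over the 11 classes of both libraries, each library centred on its own mean (22 points that share 2 libraries, 8412 genes). Aldoc was most like Ntsr2 (r = 0.984) and Fgfr3 (0.972), Eno1 like Malsu1 (0.961) and Rpp25l (0.955), and Ldha like Stx5a (0.959) and Pdia3 (0.955). Tpi1 was most like Cope (0.954) and Yipf3 (0.951), Aldoa like Tex264 (0.945) and Hcfc1r1 (0.943), and Pgk1 like Sys1 (0.936) and Pafah1b2 (0.934). For Ldhb these were Scd1 (0.924) and Ddhd1 (0.906), for Hk1 Agap3 (0.908) and Snapc3 (0.897), for Hk2 Rnase4 (0.899) and Rcan1 (0.893), and for Pfkp Rtl8a (0.832) and Cav1 (0.813).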

How the data were processed

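The authors deposited raw UMI counts per gene and barcode for each library, made with Cell Ranger (version 4.0.0 per the file headers) from 10x Genomics libraries. The labels name the mouse build mm10. Cells with 200 to 4000 genes and under 10% mitochondrial UMIs were kept, a cluster with over 30% ribosomal-protein UMIs (1339 Con cells) was left out, and doublets were treated only by the upper limit of genes. The 2000 most variable genes, without the 10 genes and the other lists (the cell-cycle genes stayed in), gave 30 components, 20 neighbours and Louvain clusters (scanpy 1.11.5, igraph 0.11.9) at resolution 1. These were 35 clusters, of which 2 stayed unnamed; names rest on fixed markers and are written "-like". UMIs were summed per class and library. Levels have Poisson, shares Clopper-Pearson and ratios conditional binomial intervals. The ratio step was tested on simulated data drawn with counting error only, so the test could not show spread between cells or libraries. With 1 library per group no test was made.

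The members and lists were chosen with earlier results of these data known. Named are all members, the 2 highest and 2 lowest genes of each list and those past a log2 ratio of 0.5 in the pooled cells, and the 2 genes most like each member. Promoters come from RefSeq; all 10 symbols matched.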

Additional observations from a re-analysis of the deposited data

How the results depend on the processing

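The summed log2 ratio of the 10 genes, -0.065, stayed below 0 in each of 9 alternatives. It was -0.11 with the shared barcodes, -0.052 over cells of at least 5000 UMIs, -0.078 with each cell weighted equally, -0.091 when centred on the median gene, -0.076 with haemoglobin left out of the totals, -0.079 with a mitochondrial limit of 20% and -0.044 without the cluster of 432 fibroblast-like cells, an alternative chosen after seeing the data. The summed level was higher in SMA in 1 of 10 classes, in 3 of 12 with the shared barcodes, in 2 of 11 with the limit of 20% and in 2 of 10 without that cluster. The 10 pairs past the fold downwards became 16 with no minimum of UMIs and 3 without that cluster, where the 6 upwards became 8. Of 90 pooled values of single genes, 29 moved beyond their counting interval. Hk2 changed sign (0.11 to -0.08, each cell weighted equally), the pooled Aldoc ratio of 0.36 was 0.18 and that of Ldhb (0.09) 0.0076 with the shared barcodes, and Tpi1 was no longer past the fold with the shared barcodes (-0.48) or without that cluster (-0.499). The cause of these changes was not tested. No paired analysis was possible because each group has 1 library. Hk1, Hk2 and Pfkp had enough UMIs in only 4, 4 and 5 of 10 classes.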

Other observations

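Some classes had under 50 cells in a library and gave levels only. Neuron-like cells (43 labelled SMA, 26 labelled Con) had the highest Hk1 level of any named class, at 59.1 CPM (37.5 to 88.7) and 68.3 CPM (40.5 to 108), and 0 UMIs of Hk2 in both libraries. Their Ldhb was at 607 and 558 CPM, and Ldha supplied 25.6% (20.8 to 30.7) and 39.0% (32.8 to 45.5) of their lactate dehydrogenase UMIs. Aldoc in these cells, 195 and 140 CPM, was near the 187 and 173 CPM of erythroid-like cells.

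Monocyte-like cells (29 labelled SMA, 292 labelled Con) stood at the other end, with Ldha at 805 CPM (690 to 933) and 877 CPM (809 to 950) and an Ldha share of 90.7% and 87.1%. Their Eno1 was at 773 CPM (SMA) and 462 CPM (Con) and their Tpi1 at 119 and 452 CPM, with intervals that did not overlap in either case. Their median depth also differed, 4742 UMIs per cell (SMA) and 1522 (Con), and its part in these differences was not tested. Macrophage-like cells (30 and 60) had 32.9 and 32.3 CPM of Hk2, below the 81.8 and 78.9 CPM of microglia-like cells.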
